A study of Homo sapiens with 10 samples.

Results

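RNA crosslinked to FLAG-tagged eIF4A in cells treated with silvestrol was compared with that in cells treated with vehicle, over every gene and transcript part counted. The comparison holds 3 silvestrol and 3 DMSO libraries, chosen by their labelled treatment, 6 of the 10 samples of the series; the input library and the libraries of another rocaglate were not part of it. All 6 came from HEK 293T, an established human embryonic kidney line, carrying FLAG-tagged eIF4A. The DMSO cells received vehicle alone and the silvestrol cells 20 nM silvestrol, in both cases for 1 h before crosslinking with ultraviolet light (254 nm, 400 mJ/cm2), and both were precipitated with an anti-FLAG antibody. The labels do not say which eIF4A paralog carried the tag, how it was expressed, whether the line was a single clone, or whether the numbers 1 to 3 mark separate cultures, so the p-values measure the spread between these libraries only.

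eIF4A is a DEAD-box RNA helicase of the cap-binding complex eIF4F, in which it opens structure in the 5' leader so that the small ribosomal subunit can load and scan. Silvestrol is a plant rocaglate, a class of compounds known to clamp eIF4A onto RNA with a preference for stretches of purines, which blocks scanning. Enhanced crosslinking and immunoprecipitation (eCLIP) freezes a protein on its RNA with ultraviolet light and sequences the bound fragments.

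Counts were given for 39472 gene symbols in 7 classes. These are the 5' leader, the coding sequence (CDS) and the 3'UTR of mRNAs, and ncRNA, LINC, Pseudogene and a class named transcript. A symbol in 1 class is called a feature here; 63451 features had a count in these libraries and 21059 passed the filter on low counts (6009 leaders, 7369 CDS, 5777 3'UTRs). Library totals ran from 943310 to 1074588 counts in DMSO and from 858733 to 1804732 with silvestrol. Thinned to 858733 counts, the libraries numbered 2 held the fewest features in both groups (38674 in DMSO and 37038 with silvestrol, against 43313 to 50472 in the others). Of 10 genes typical of this line all had counts, with summed levels of 527 to 797 CPM (counts scaled to library size) in DMSO and 686 to 889 with silvestrol, whereas 10 blood and liver genes summed to 22.4 to 31.8 and 13.3 to 46.8 CPM, with TTR at 0. RNA levels were not measured in each treatment, so more binding per RNA and more RNA cannot be told apart.

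With silvestrol a larger part of the eIF4A-bound counts fell on 5' leaders and a smaller part on 3'UTRs. Leaders held 23.4%, 24.1% and 20.7% of the counts in DMSO libraries 1, 2 and 3, and 34.4%, 28.5% and 29.5% in silvestrol libraries 1, 2 and 3. The groups did not overlap, and the leader share was higher by 11.02, 4.47 and 8.87 percentage points within the same-number libraries. The 3'UTR share was 25.1%, 24.7% and 27.4% in DMSO and 18.5%, 20.8% and 20.6% with silvestrol, again without overlap. The 3'UTR of HINT3 carried part of this: left out, which was chosen after seeing the data, the 3'UTR shares were 23.02%, 20.3% and 24.4% against 16.99%, 18.9% and 19.5%, still without overlap but with a difference of -4.12 points. CDS shares (35.7%, 31.4% and 31.7% against 32.4%, 27.3% and 31.5%) and ncRNA shares overlapped. The mean differences were 8.12 points for leaders, -5.73 for 3'UTRs and -2.48 for CDS, with exact two-sided permutation p of 0.1, 0.1 and 0.5 (0.233, 0.233 and 0.7 adjusted over the 7 classes). Because 3 against 3 libraries cannot give a p under 0.1, no class could pass. Shares are relative, so a gain in one class lowers the others.

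**Figure D1:**
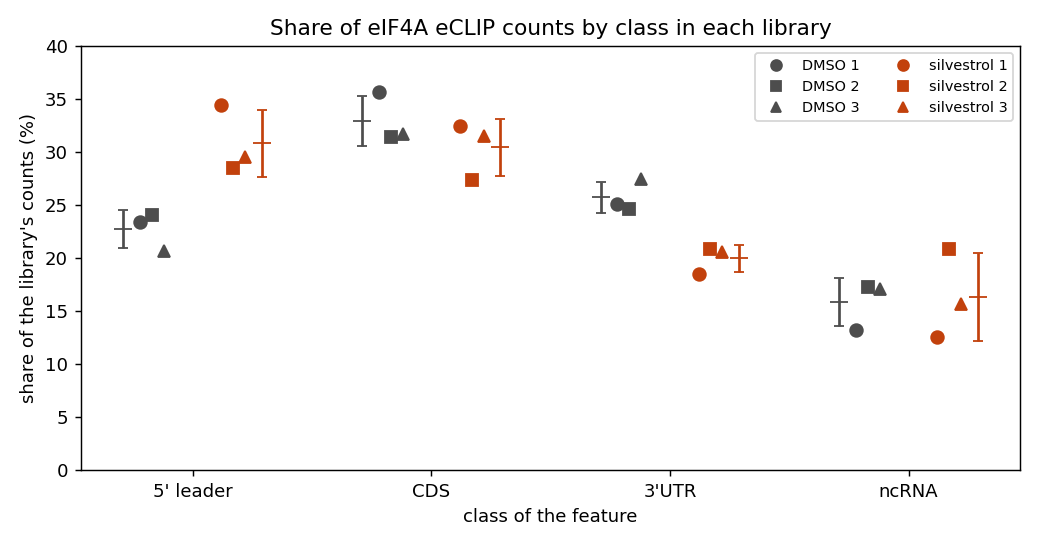
Share of each library's counts (%) by class; circles, squares and triangles are libraries 1, 2 and 3, grey DMSO and orange silvestrol, with bars for the mean ± SD (n = 3). The silvestrol leader shares (28.5% to 34.4%) all lie above the DMSO shares (20.7% to 24.1%), and the 3'UTR shares all lie below.

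The same shift was spread over the class of leaders. The median log2 fold change (silvestrol over DMSO, edgeR, on counts scaled by TMM factors) was 0.40 for leaders, -0.11 for CDS and -0.24 for 3'UTRs, and -0.03 for all features tested. Of the leaders 71.9% lay above 0, against 41.7% of CDS and 31.3% of 3'UTRs. More than 2-fold up, past a log2 fold change of 1, were 1255 leaders but 332 CDS and 82 3'UTRs. By same-number libraries the leader median was 0.50, 0.23 and 0.41 in pairs 1, 2 and 3, so it was above 0 in every pair and lowest in pair 2.

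**Figure D2:**
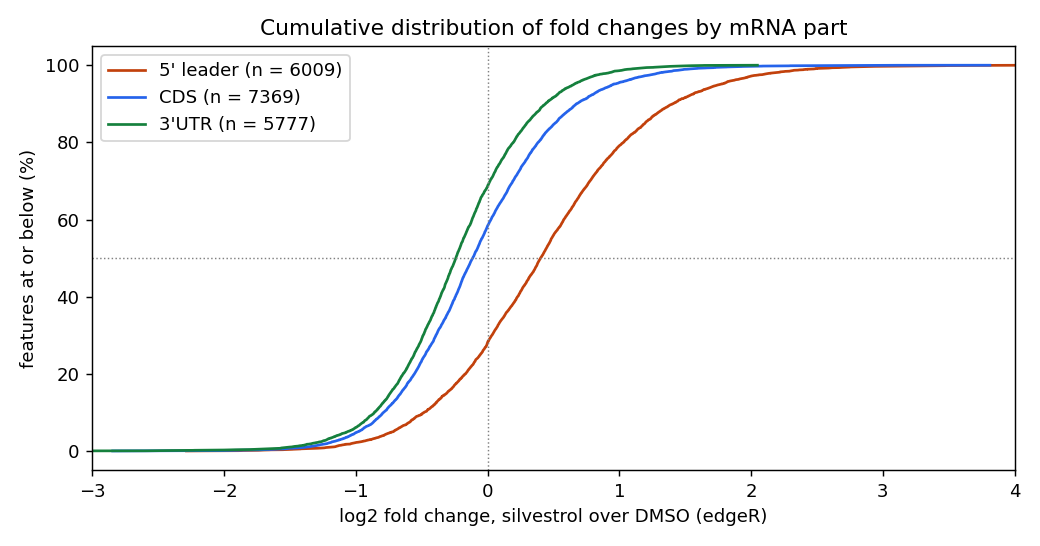
Cumulative share of features (%) at or below each log2 fold change, silvestrol over DMSO, for leaders, CDS and 3'UTRs. The leader curve is shifted to the right over most of its range (median 0.40), with CDS (-0.11) and 3'UTR (-0.24) close together.

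Single leaders went far beyond this shift. At an adjusted p under 0.05 (edgeR quasi-likelihood, Benjamini-Hochberg over all features), 67 features of 66 genes were called, which is 0.318% of all features tested. All 67 were higher with silvestrol. In all 67 the 3 silvestrol libraries lay above the 3 DMSO libraries, but the calls rest on these same libraries, so the separation adds no support. Silvestrol library 1, the deepest, was the highest library in 46 of the 67. Leaders made up 62 of the 67, 1.03% of the leaders tested. Called log2 fold changes ran from 1.56 to 4.41 with a median of 2.25. No feature was called lower, although 487 were below 0 at an unadjusted p under 0.05 (1413 were above 0). DESeq2 called 2 features lower and limma voom 0. Calls were tied to the mean CPM of a leader over all 6 libraries. None of 2174 leaders at 10 to 20 CPM was called, and 16 of 2295 at 20 to 50 CPM. At 50 to 100 CPM 20 of 766 were called, and above 100 CPM 26 of 426. This mean includes the silvestrol values, which an increase raises, so part of the link is built in. By the DMSO mean alone, 25 of the 67 called features lay below 20 CPM.

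Same-number libraries deviated together from their group means (correlations of 0.249, 0.162 and 0.216 over all features tested), and with the number as a block the edgeR count was 323 higher features, 1.53% of those tested, and 8 lower ones, 0.038%. The higher ones included all 67 and counted 280 leaders, 4.66% of the leaders tested. Most calls rested on every library but silvestrol library 2: 45 of the 67 were called in just 1 of the 6 fits that left out a library. Without DMSO library 1, 2 or 3 the counts were 3, 13 and 4, and without silvestrol library 1, 2 or 3 they were 3, 142 and 20; the 142 included 65 of the 67. Without both number 2 libraries, a fit chosen after seeing the data, 231 features were called. Scaled among leaders alone, which takes out the general shift, 24 leaders were called, all among the 62. The median over all 5871 leaders in that fit was -0.02, in place of 0.40; log2 fold changes given here are on the scale of all features, on which a leader at 0 lies below the typical leader.

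The largest change was in the leader of POU3F2, a neural transcription factor of the POU family. It had 4.42, 0.956 and 4.202 CPM in DMSO libraries 1, 2 and 3 and 70.6, 78.5 and 61.1 CPM with silvestrol (log2 fold change 4.41, SE 0.53, edgeR adjusted p = 0.00165). The DMSO values rest on 5, 1 and 4 counts, so the size of the fold is loosely set, but the 2 groups are far apart. limma voom, the one alternative that did not call it, gave an adjusted p of 0.33. The leader of PCDH9, a protocadherin of neuronal cell contacts, rose from 18.6, 26.8 and 12.6 CPM to 194, 165 and 291 CPM (log2 3.47, SE 0.40, edgeR adjusted p = 0.00139). The leader of FLNC, the actin cross-linker filamin C, rose from 10.6, 13.4 and 9.45 CPM to 116, 115 and 123 CPM (log2 3.39, SE 0.38, edgeR adjusted p = 0.00139). FLNC varied little within each group. These 3 leaders were the only features called in all 6 fits without 1 library (edgeR adjusted p up to 0.0278) and stayed called among leaders alone (adjusted p from 0.00185 to 0.00388).

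Stretches of these leaders show what several of them hold. The longest purine run (A and G only) of the annotated leader is given below in capitals, with flanking bases in lower case, for the 3 leaders above and for 3 other called leaders with long runs. Sequences are from GENCODE 29 transcripts (GRCh38), written 5' to 3' as DNA along the transcript; the build behind the counts is not given, so a place in the annotation is not a mapped binding site. Coordinates cover the bases printed, each within 1 exon of the 5' leader.
POU3F2: GAGAAGGAGGGAGAGGAGGAGAAAGAGAG
PCDH9: atactGGGAAAGGGGAAAGGttgag
FLNC: gccctGGAGGGAGAGAGAGccaga
PAFAH1B1: gcGAGAAGGAGAAGGAGGGGAGcgctc
CTNND1: GAGGGGGAAAAAAAAGAGAGAGGGAGAGAG
RAB5A: GGAGGAGGAGAAAGGAAAGAGGAAGGGGGA
The POU3F2 run of 29 bases lies at chr6:98834636-98834664 on the plus strand, from base 45 of a 282-base leader. Those of PCDH9 (15 bases, within chr13:67229789-67229813, minus strand), FLNC (14 bases, chr7:128830428-128830451, plus strand) and PAFAH1B1 (20 bases, chr17:2593746-2593772, plus strand) cover bases 11 to 25, 8 to 21 and 3 to 22 of leaders of 174, 212 and 451 bases, close to the 5' end. The runs of CTNND1 (43 bases, of which 30 are shown, chr11:57761873-57761902, plus strand) and RAB5A (31 bases, 30 shown, chr3:19947286-19947315, plus strand) are among the longest of the 60 called leaders with a match.

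The size of the change went with the purine content of the leader. Of the 6009 leaders tested 5820 were matched to an annotated leader, and the median log2 fold change went up with the share of purines: 0.06 for the 348 leaders under 40% purine, 0.17 at 40 to 45%, 0.31 at 45 to 50%, 0.42 at 50 to 55%, and 0.65 for the 1538 leaders at 55% or more. The order was the same in each same-number pair, from 0.06 to 0.79 in pair 1, 0.03 to 0.45 in pair 2 and 0.10 to 0.67 in pair 3. As counts, leaders with 55% or more purines took 23.6%, 23.2% and 24.7% of all matched leader counts in DMSO libraries 1, 2 and 3, and 28.99%, 27.0% and 29.6% with silvestrol. Leaders under 40% purine took 7.03%, 7.23% and 6.79% in DMSO and 5.15%, 5.91% and 5.25% with silvestrol. Neither pair of groups overlapped; the differences were 4.67 and -1.58 percentage points (exact two-sided permutation p = 0.1 each, the smallest that 3 against 3 can give, 0.125 adjusted over the 10 bins compared). These shares are taken within leaders, so the general gain of leaders over other classes does not enter them.

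**Figure D3:**
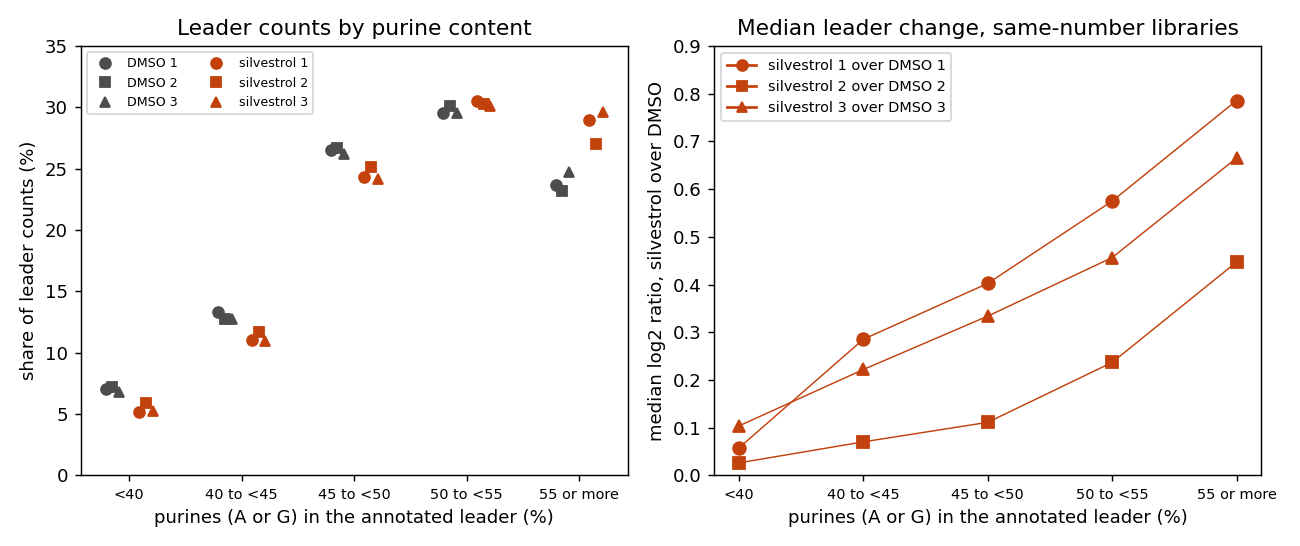
Left, share of matched leader counts (%) in each library by purine content of the annotated leader; right, median log2 ratio of leaders for each same-number pair of libraries. The silvestrol libraries exceed DMSO at 55% purine or more (27.0% to 29.6% against 23.2% to 24.7%), and the median ratio climbs from left to right in all 3 pairs.

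The length of the longest purine run gave a like order. Leaders whose longest run was under 6 bases had a median log2 fold change of 0.17, those of 6 or 7 bases 0.33, of 8 or 9 bases 0.42, of 10 to 12 bases 0.46, and of 13 or more bases 0.56 (n = 766, 1312, 1314, 1308 and 1120). Longer leaders hold longer runs (the median length rose from 115.5 to 454.5 bases over these groups). Between the groups with the shortest and the longest runs, the medians were 0.18 and 0.68 among leaders of 20 to 99 bases, 0.19 and 0.68 at 100 to 199 bases, and 0.16 and 0.70 at 200 to 399 bases. At 400 bases or more, where only 4 leaders had a longest run under 6, they went from 0.26 at 6 or 7 bases to 0.49. The order was not strict in each: runs of 10 to 12 bases had the highest median both at 20 to 99 bases (0.77) and at 100 to 199 bases (0.78), and at 20 to 99 bases runs of 6 or 7 bases had 0.47 against 0.41 for 8 or 9. Length and GC content by themselves ordered the leaders little: the medians lay between 0.30 and 0.42 over 5 classes of length and between 0.36 and 0.45 over 5 classes of GC content. Across the 5820 leaders, which share these 6 libraries, Spearman's rho with the log2 fold change was 0.25 for the share of purines, 0.16 for the longest run, 0.01 for length and 0.03 for GC content.

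The called leaders were described by the same features. The hexamers searched were AGAGAG with its shifted form GAGAGA, and GAAGAA with its shifted forms AAGAAG plus the remaining one, AGAAGA; they overlap one another and were read on the transcript strand only. At least 1 of them was found in 50% of the 60 called leaders with a match and in 30.6% of all 5820. With the block, 41.0% of the 271 matched leaders called higher held at least 1. The first 50 bases after the RefSeq start (GRCh38.p14), a window of 1 length, were searched for the hexamers as well. There they were found in 20.4% of 49 called leaders, 5.89% of 4773 tested and 8.35% of all 35116 entries. A run of 4 GGC triplets was in 6.67% of called and 6.84% of all matched leaders. The median called leader had 54.8% purines against 51.0%, and a length of 248 bases against 266.5. The longest run had 8 bases in CCND1, CLSPN, TPM3 and YBX1 and 5 in RPL41 and RPS15, so a long run was not shared by every called leader.

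Among regulators of growth and the cell cycle, the leader of CCND1, which encodes the G1 cyclin D1, had 5.30, 13.4 and 8.40 CPM in DMSO and 75.1, 74.3 and 73.8 CPM with silvestrol (log2 3.03, SE 0.44, edgeR adjusted p = 0.00759). The silvestrol values were nearly equal and the DMSO values scattered. The leader of the transcription factor MYC rose from 127, 98.4 and 90.3 CPM to 452, 432 and 309 CPM (log2 1.92, SE 0.33, edgeR adjusted p = 0.0224). The leader of FZR1, an activator of the anaphase-promoting complex, rose from 18.0 ± 3.53 to 99.9 ± 33.2 CPM (SD, n = 3 each). CLSPN, the replication checkpoint adaptor claspin, rose from 7.21 ± 2.61 to 47.5 ± 3.92 CPM. Without single libraries the edgeR adjusted p reached 0.0811 for CCND1, 0.197 for MYC, 0.155 for FZR1 and 0.199 for CLSPN. Of a list of 32 mRNAs of growth-promoting genes often named as eIF4A-dependent, 23 leaders were tested and 2 rose (CCND1 and MYC; with the block also CCND2), with a median of 0.31 against 0.40 for all leaders. Of the 23 G1/S genes tested 2 rose (CCND1 and FZR1), with a median of 0.76 and 87.0% above 0 against 71.9%. Of all leaders 1.03% rose; with the block 4 of the 23 did (CCND2 and MCM7 besides), against 4.66% of all leaders. The leader of BCL2L1, an anti-apoptotic protein, had a log2 fold change of 3.25 (SE 0.86) and did not pass (edgeR adjusted p = 0.153), and no leader of the 15 tested apoptosis regulators did.

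Several called leaders belonged to mRNAs whose products hold translation back. EIF4EBP1 encodes the repressor that keeps eIF4E from eIF4G; its leader rose from 7.95, 5.73 and 6.30 CPM to 58.8, 34.1 and 35.7 CPM (log2 2.67, SE 0.51, edgeR adjusted p = 0.03). PDCD4, which binds and inhibits eIF4A itself, rose from 22.1, 14.3 and 10.5 CPM to 97.5, 48.5 and 66.9 CPM (log2 2.17, SE 0.43, edgeR adjusted p = 0.0421). PAIP2, which displaces the poly(A)-binding protein, rose from 44.2, 54.5 and 39.9 CPM to 182, 153 and 153 CPM (log2 1.82, SE 0.33, edgeR adjusted p = 0.0247). In each the groups did not overlap, as in all 67 called features. The gene lists used in this report, this one included, were chosen with earlier results of these data known. Their counts are therefore description and no support for a theme. Of the 9 listed repressors 7 leaders were tested, 3 rose, against 1.03% of all leaders, and the median was 1.55 against 0.40. With the block 4 rose, EIF4EBP2 being the other, against 4.66% of all leaders. Of 16 genes of eIF4F and its cofactors 9 leaders were tested, with a median of 0.09, and 1 rose: PAIP1, which links the poly(A)-binding protein to eIF4A, from 32.7 ± 8.78 to 119 ± 34.5 CPM. None of 15 tested leaders of other initiation factors was called (median 0.73), with EIF5B called under the block (log2 2.04). Each of these calls was lost without 5 or 6 of the single libraries (edgeR adjusted p up to 0.408), and EIF4EBP1, PDCD4, PAIP2 and PAIP1 were not called among leaders alone (adjusted p from 0.0574 to 0.123).

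**Figure D4:**
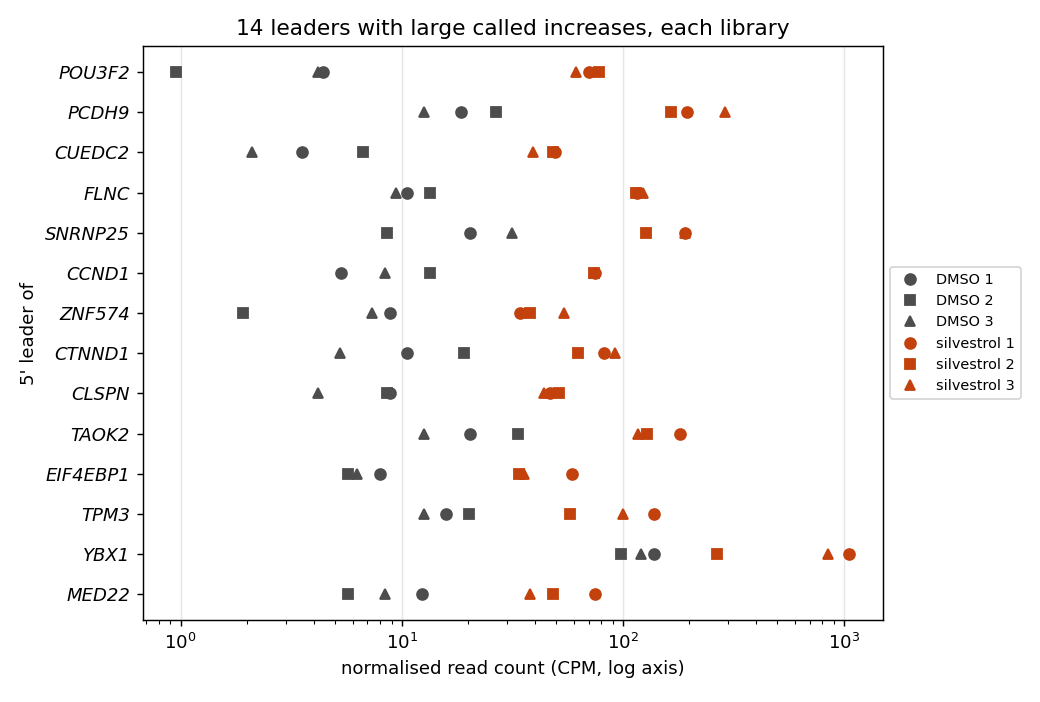
Normalised read count (CPM, log axis) of 14 of the 15 leaders with the largest called increase, in each library; grey DMSO, orange silvestrol, shapes for libraries 1 to 3. In every leader the silvestrol points lie to the right of all DMSO points, which was a condition of the choice. POU3F2 in DMSO is the lowest (0.956 to 4.42 CPM) and YBX1 with silvestrol the highest (265 to 1054 CPM).

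Other called leaders included those of several RNA-binding proteins. YBX1, a cold-shock protein that packages mRNA, rose from 138, 98.4 and 121 CPM to 1054, 265 and 844 CPM (log2 2.60, SE 0.44, edgeR adjusted p = 0.0211), with silvestrol library 2 well below the other 2. SNRNP25, a protein of the minor spliceosome, rose from 20.3, 8.60 and 31.5 CPM to 191, 127 and 191 CPM (log2 3.08, SE 0.43, edgeR adjusted p = 0.00734). DDX6, a helicase of mRNA repression and decapping, rose from 15.3 ± 8.40 to 81.9 ± 12.7 CPM. It was the only call among 22 tested leaders of DEAD-box and DEAH-box helicases (median 0.45), and with the block DDX1 was called too. For this list and the next, the values over all leaders were 1.03% called, 4.66% with the block, and a median of 0.40. HNRNPD, an AU-rich element binder, rose from 291 ± 62.6 to 978 ± 377 CPM, the only call among 30 tested leaders of hnRNP and SR proteins (median 0.38); with the block HNRNPC and SRSF3 were called too. SYNCRIP, a related hnRNP that is not on this list, was also called, and rose from 176 ± 50.4 to 685 ± 206 CPM. SET, a histone chaperone and phosphatase inhibitor, had the highest level of the called leaders, 631, 761 and 889 CPM in DMSO and 3246, 1904 and 2480 CPM with silvestrol. YBX1, HNRNPD, SYNCRIP and SET, like GAPDH, ACTB, HMGB1 and the ribosomal protein genes below, have processed copies elsewhere in the genome, and how the counting split such reads is not given. Without single libraries the edgeR adjusted p of these 6 genes reached 0.0728 for SNRNP25 and between 0.155 and 0.323 for the others.

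In the cytoskeleton and at cell contacts, FLNC and TPM3, a tropomyosin that coats actin filaments, were called among 23 tested leaders of actin filament genes, whose median was 0.89. Of all leaders 1.03% were called, with a median of 0.40. TPM3 had 15.9, 20.1 and 12.6 CPM in DMSO and 139, 57.8 and 100.3 CPM with silvestrol (log2 2.61, SE 0.42, edgeR adjusted p = 0.0156). With the block 8 of the 23 rose, ACTB, ACTN4, MYL6, PFN1, TMSB10 and TLN1 being the others, against 4.66% of all leaders. The CDS of 26 actin filament genes had a median of -0.33 with none called. CTNND1, the cadherin-binding p120 catenin, rose from 10.6, 19.1 and 5.25 CPM to 82.4, 63.0 and 92.3 CPM (log2 2.74, SE 0.46, edgeR adjusted p = 0.0196). PAFAH1B1, the dynein regulator LIS1, rose from 74.2, 81.2 and 88.2 CPM to 457, 360 and 375 CPM (log2 2.29, SE 0.32, edgeR adjusted p = 0.00734), and RAB5A, a GTPase of early endosomes, from 17.7, 23.9 and 25.2 CPM to 129, 119 and 123 CPM. None of 9 tubulin leaders was called (median 0.09), and TUBA1B was called lower with the block (log2 fold change -0.97, edgeR adjusted p = 0.0429 there and 0.321 without it). PCDH9 was the only call among 11 tested leaders of cadherins and protocadherins, whose median was 0.44. Without single libraries the edgeR adjusted p reached 0.158 for TPM3, 0.155 for CTNND1, and 0.0796 for PAFAH1B1 and for RAB5A.

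Other leaders of the 15 largest were those of CUEDC2 (log2 3.43), ZNF574 (2.77), TAOK2 (2.68) and MED22 (2.59). CUEDC2, a ubiquitin-binding protein, had 3.53, 6.69 and 2.10 CPM in DMSO and 49.3, 48.5 and 39.2 CPM with silvestrol. TAOK2, a stress-pathway kinase, had 22.1 ± 10.5 CPM in DMSO and 142 ± 34.3 CPM with silvestrol. In the chaperone list DNAJB6, an HSP40 family member, was the only call of 26 leaders, from 33.6, 21.03 and 13.7 CPM to 118, 107 and 95.7 CPM. With the block DNAJA1 and CCT7 were called too. Of all leaders 1.03% were called, or 4.66% with the block. limma voom did not call 9 of the 62 leaders, CUEDC2, ZNF574, MED22, EIF4EBP1 and CLSPN among them. Without single libraries all these calls were lost at least once.

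Ribosomal protein mRNAs, which begin with a pyrimidine tract, had leader medians near 0. The leaders of 42 large-subunit and 30 small-subunit genes had medians of -0.00 and -0.02, and 50% of each lay above 0, against 71.9% of all leaders; this difference was not tested. RPL18, RPL41 and RPS15 rose (log2 2.25, 2.08 and 1.91), 2 of 42 and 1 of 30 against 1.03% of all leaders, and with the block 4 of each rose, against 4.66%; the lowest was RPS13 at -1.74, which did not pass (edgeR adjusted p = 0.487). Their CDS had medians of -0.34 and -0.40, against -0.11 for all CDS. Other mRNAs with a terminal pyrimidine tract had a leader median of 0.08 over 12 genes, with no call (VIM and LDHB with the block), and a CDS median of -0.49 over 17, none of which was above 0. With the block the CDS of RPL14, RPS15A, RPS23 and EEF1A1 were called lower (log2 -1.18, -1.38, -1.31 and -0.85), as were the CDS of the chaperone HSPA8 (-1.15) and the 3'UTRs of HINT3 (-1.08) and HMGB1 (-1.44). EEF1A1, the elongation factor, had 934, 883 and 783 CPM in its CDS in DMSO and 614, 409 and 420 CPM with silvestrol, without overlap; its edgeR adjusted p was 0.0373 with the block and 0.374 without. Oxidative phosphorylation genes had a leader median of 0.12 over 41 genes with no call, or 3 with the block (NDUFA1, NDUFB8 and ATP5G3). Glycolysis genes had 0.60 over 15 with no call, or 3 with the block (GAPDH, ENO1 and LDHB). With the block 4.66% of all leaders rose, and the median of all leaders was 0.40.

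The remaining lists held few calls. For comparison, 1.03% of all leaders rose, or 4.66% with the block, and the median of all leaders was 0.40. Among neural POU, SOX and bHLH factors 14 leaders were tested with a median of 1.06; POU3F2 rose, and with the block POU3F3, HEY1 and ID2 rose as well. Among immediate early genes 18 leaders had a median of 0.63; MYC rose, and with the block JUN and JUNB. JUNB, a subunit of AP-1, had a log2 fold change of 2.85 (edgeR adjusted p = 0.0755 without the block). Proteasome leaders had a median of 0.44 over 21 genes with no call, or 3 with the block (PSMA7, PSMD1 and PSMD2), and the 3.28 of PSMD2 did not pass without it. Stress mRNAs with upstream open reading frames (12 leaders, median 0.13) and aminoacyl-tRNA synthetases (15 leaders, median 0.32) had no call in either fit, and of 7 polyamine genes (median 0.26) OAZ1 was called with the block alone. The 26 chaperone leaders had a median of 0.21 and their 29 CDS one of -0.53.

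Outside leaders 5 features were called. The CDS of RPL41, a ribosomal protein with a very short coding sequence, rose from 163, 77.4 and 98.7 CPM to 1030, 299 and 845 CPM (log2 2.68, SE 0.45, edgeR adjusted p = 0.0196), beside its leader. The transcript-class feature of CNIH3, an auxiliary subunit of AMPA receptors, rose from 18.9 ± 1.80 to 115 ± 30.3 CPM (log2 2.60). The CDS of GTF3C4, a subunit of transcription factor IIIC, rose from 42.8 ± 2.69 to 138 ± 17.3 CPM (log2 1.69) and that of SAE1, a SUMO-activating enzyme subunit, from 98.1 ± 10.6 to 297 ± 80.3 CPM (log2 1.60). The ncRNA LOC105372631 rose by 1.58 on the log2 scale. RPL41 has many processed copies, so its counts are uncertain. Each of these 5 calls was lost without at least 3 of the single libraries.

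No feature was called lower; the 5 with the lowest unadjusted p among those below 0 with a mean of at least 20 CPM are given as values. They were the 3'UTRs of ATP9A (log2 -1.98), FAM213A (-1.91) and CASP2 (-1.31) and the CDS of MRPS18B (-1.59) and RPS15A (-1.38), with edgeR adjusted p from 0.163 to 0.198. In each, picked by its p from these same libraries, the 3 silvestrol libraries lay below the 3 DMSO libraries. ATP9A, for one, had 46.8, 37.3 and 32.6 CPM in DMSO and 11.2, 3.10 and 14.99 CPM with silvestrol.

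Whether a leader changed apart from its own mRNA was asked by setting leader counts against CDS counts of the same gene in the same library. This leader-over-CDS term uses the leader counts of the test above and is not independent of it. Over 4397 genes with both parts the median term was 0.54 on the log2 scale, and 79 genes were called by edgeR, 1.8% of those tested, all of them higher. In all 79 the share of leader counts among leader plus CDS counts was above every DMSO library in every silvestrol library. The calls rest on these same counts, so this separation adds no support. The median share over these genes went from 34.1% in DMSO to 67.8% with silvestrol. Of the 79, 30 also had a called leader and 49 did not. Leaders of all 79 were above 0, and 68 of their CDS were below 0 (median -0.42, against -0.11 for all 4397), none of them called; a low CDS favours a call here, so this says nothing of the CDS alone. With the block 99 genes were called, 73 of them shared.

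FLNC had the lowest adjusted p of this test. Leader counts were 12%, 9.46% and 9.47% of its leader plus CDS counts in DMSO libraries 1, 2 and 3, and 71.4%, 55.2% and 66.5% with silvestrol (term 3.99, SE 0.50, edgeR adjusted p = 0.00113). PCDH9 went from 42.9%, 38.9% and 32.4% to 92.0%, 82.5% and 93.7% (term 3.88, SE 0.55, edgeR adjusted p = 0.00178). PAFAH1B1, whose counts were already mostly in the leader, went from 82.4%, 72.6% and 77.8% to 97.7%, 99.1% and 95.6% (term 3.55, SE 0.52). The groups were far apart in FLNC and PCDH9 and near the upper limit in PAFAH1B1. POU3F2 had a term of 3.88 and CLSPN of 3.56. The largest term, 4.05, was that of the DNA ligase LIG3, whose leader held 3, 0 and 2 counts in DMSO and 46, 19 and 18 with silvestrol; its leader alone was not called (edgeR adjusted p = 0.079).

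**Figure D5:**
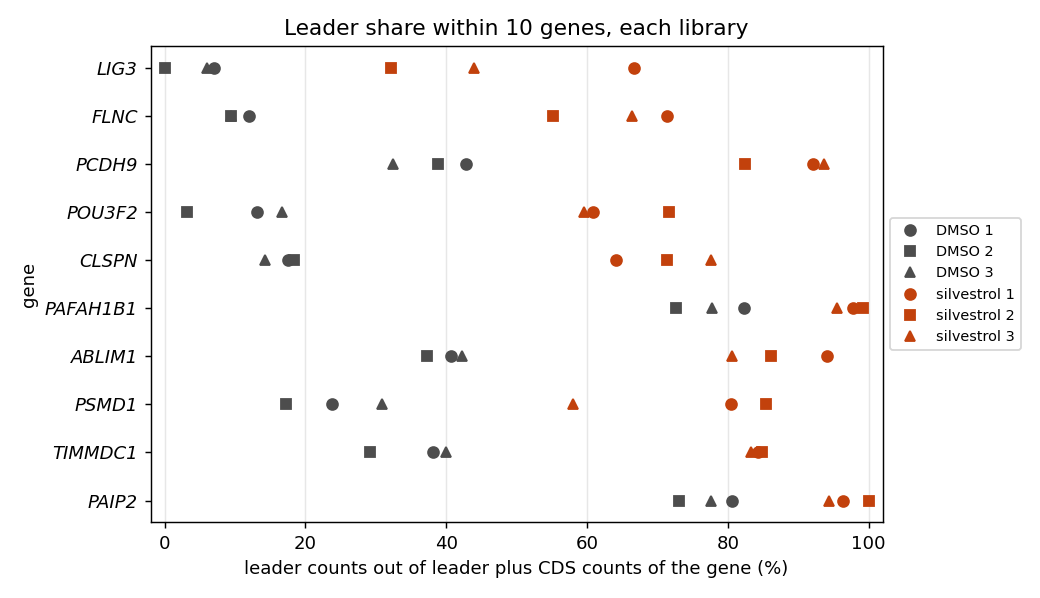
Leader counts as a share (%) of leader plus CDS counts of the gene, in each library, for the 10 genes with the largest called leader-over-CDS term; grey DMSO, orange silvestrol, shapes for libraries 1 to 3. In each gene, called on these same counts, the silvestrol libraries lie to the right of all DMSO libraries, for FLNC 55.2% to 71.4% against 9.46% to 12%.

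The remaining genes of the 10 were ABLIM1, an actin-binding LIM protein (3.48), PSMD1, a base subunit of the proteasome (3.36), TIMMDC1, a complex I assembly factor (3.27), and PAIP2 (3.26). ABLIM1, PSMD1 and TIMMDC1 had no called leader in the first test. Abundant housekeeping mRNAs were called here although, without the block, neither of their parts was called alone. In GAPDH, the glycolytic dehydrogenase, the leader share went from 19.5%, 15.9% and 18.7% to 47.3%, 42.6% and 44.3% (term 1.88, SE 0.29, edgeR adjusted p = 0.00244), and in ACTB, cytoplasmic beta-actin, from 43.6%, 43.2% and 33.7% to 73.7%, 61.6% and 68.2% (term 1.67, SE 0.31). Translation genes among the 79 included EEF2 (1.20), RACK1 (1.62), RPL18 (2.35), RPS3 and RPS15. Called in all 6 fits without 1 library were 11 genes: FLNC, PCDH9, PAFAH1B1, SYNCRIP, NONO, RPL18, GNB1, SNRPB, YBX1, GAPDH and PRRC2A. Counts without single libraries were 21, 60 and 23 for DMSO libraries 1, 2 and 3 and 11, 44 and 39 for silvestrol. With leaders and CDS each scaled on their own, chosen after seeing the data, the median term was 0.02 and 8 genes stayed called (FLNC, PCDH9, PAFAH1B1, SYNCRIP, NONO, GNB1, SNRPB and YBX1), so for these the term exceeded the general shift of leaders.

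The called leaders seldom came with a called change elsewhere in their mRNA. Of the 62 genes 57 had a tested CDS, with a median log2 fold change of 0.27, 35 above 0 and 1 called (RPL41). Over all 7369 CDS tested the median was -0.11, with 41.7% above 0 and 3 called. The CDS of called leaders thus had a median above that of all CDS, and calls were rare among CDS in general. A 3'UTR was tested in 41, with a median of -0.21, 10 above 0 and none called. For all 3'UTRs the median was -0.24, with 31.3% above 0 and none called. In MYC the CDS had 0.69 beside 1.92 for the leader, and in CCND1 the CDS had 0.46 and the 3'UTR 0.25 beside 3.03.

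Of the most abundant features in DMSO, SET alone was called. The leaders with the highest means were those of WDR74, OR1F1, GNAS, SET and NDUFS7; NDUFS7 (342, 1107 and 355 CPM in DMSO, 311, 1568 and 148 with silvestrol) and OR1F1 were highest in the libraries numbered 2 of both groups. The CDS with the highest means were RPS2, EEF2, EEF1A1, SRRM2 and FASN. RPS2, EEF2 and EEF1A1 had all silvestrol libraries below all DMSO libraries. The share of all CDS that separate in this way is not given here, and the median of all CDS was itself below 0 (-0.11). Thus the separation says little of these genes. Among 3'UTRs the highest means were those of HINT3, MAZ, LENG8, ZNF703 and KHSRP. HINT3 alone held 24989, 55745 and 39703 CPM in DMSO and 18727, 24534 and 13567 CPM with silvestrol, without overlap (edgeR adjusted p = 0.291, or 0.011 with the block). The ncRNAs with the highest means were RMRP, XIST, NEAT1, RNU12 and RN7SK, and their values overlapped between the groups. Of 15 tested small nuclear and cytoplasmic RNAs and 12 nuclear long noncoding RNAs none was called (medians -0.16 and -0.20). For the eIF4A genes themselves, EIF4A1 was listed at 0 in every class of all 6 libraries; EIF4A2 had 47.7, 53.5 and 32.6 CPM in its CDS in DMSO and 40.4, 25.8 and 29.98 with silvestrol, and EIF4A3 53.0, 44.0 and 35.7 against 47.6, 21.7 and 29.98, with overlap in both and no call in any part tested.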

How the data were processed

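Anti-FLAG eCLIP libraries were made after 1 h with DMSO or silvestrol (3 each). The deposited values are counts per gene symbol and class, whole numbers and not normalised, 1 table per library; the submitters' processing notes name cutadapt and Bowtie 1.1 among the authors' tools, with no settings. The build, annotation, PCR-duplicate handling, strand use and counting rule are not given in the sources used here, so overlapping, antisense and near-identical genes are uncertain. Each table's 1 blank line was left out. Libraries of a group were not duplicates (chi-square per degree of freedom 3.97 to 9.07).

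Counts of the 6 libraries were filtered with filterByExpr by group, scaled with TMM factors and tested with edgeR 4.0.16 (R 4.3.3) by quasi-likelihood, Benjamini-Hochberg adjusted over all 21059 features; an adjusted p under 0.05 is a call. CPM use TMM-scaled library sizes. Leader over CDS was an interaction term over 12 columns, with the library total as offset for both parts. Single values were compared by exact permutation. On simulated counts (100 features each changed 2-fold and 4-fold) the silvestrol test recovered 6 and 59 with 1 unchanged feature called (18944 features), and the leader-over-CDS test 0 and 21 with none (4397 genes). The simulation held no general shift of leaders and no correlation of same-number libraries, so its counts of false calls may not carry over to these data. Groups were taken from the labelled treatment. Same-number libraries correlated at 0.249, 0.162 and 0.216 in their deviations from the group means (prior count 2), other pairs at -0.151 to -0.0509. Deviations within a group cancel out, so positive same-number values push the other pairs down, and the negative values add no support. The numbers were taken as pairs on the same-number values, which come from the data, not the labels.

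Leader sequences are from GENCODE 29 (GRCh38) basic transcripts with a leader of at least 20 bases. For each gene the transcript of the best principal rank was taken, or a non-principal one where no principal one qualified. Among transcripts of equal rank the longest leader was used, so leader lengths and purine runs lean to the long side. The purine bins of whole leaders were added after the data were seen. Alternatives were the replicate block, other scalings and filters, DESeq2 1.42.0, limma 3.58.1 voom, all 9 anti-FLAG libraries, and leaving out libraries. Genes named are the 15 largest called leader increases (1 is not reported here), called features outside leaders, the 5 features below 0 with the lowest p, called list members, the 5 highest DMSO levels per class, the 10 largest leader-over-CDS terms and the EIF4A genes; PAFAH1B1, RAB5A, SYNCRIP, BCL2L1, HSPA8, HMGB1 and the abundant genes beside the 10 largest terms were chosen after their values were seen. The members and the 27 gene lists were chosen with earlier results of these data known.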

Additional observations from a re-analysis of the deposited data

How the results depend on the processing

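Against 67 calls, the count was 331 with the replicate block (280 of them leaders that rose), 283 with DESeq2, 223 with no filter, 24 with leaders fitted alone (of 5871 leaders), 231 without both number 2 libraries, and 3 to 142 without 1 library; the other alternatives gave 55 to 100. The 24 called among leaders alone were all among the 67. Against 79 leader-over-CDS calls, the count was 180 with DESeq2, 230 without both number 2 libraries, 8 with own scaling of each part and 11 to 60 without 1 library; the block gave 99, and a minimum of 20 counts in each part removed no gene. The differences in leader share (8.12 points), 3'UTR share (-5.73) and purine-rich leader share (4.67) moved by less than the spread between libraries in the alternatives run, except that the 3'UTR difference was -4.12 without HINT3, the largest 3'UTR feature. For 23 abundant or EIF4A features described by level alone, 46 of 371 alternative values had the other sign, all in 10 features with a log2 fold change of at most 0.28. The cause of these differences was not tested. Leaders with a mean under 20 CPM over the 6 libraries were not called at this depth. By the DMSO mean alone, 25 of the 67 called features lay below 20 CPM.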
